A study of Mus musculus with 8 samples.

Results

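The 50 genes described here drive the cell cycle and copy DNA: cyclins, cyclin-dependent kinases (CDKs) and their inhibitors, the transcription factors that switch them on, replication enzymes and mitotic proteins. They were taken by symbol from a table of 24421 genes in CPM (reads of a gene scaled to the total reads counted in genes). All 50 had at least 1 CPM in at least 2 of the 8 libraries, as had 12194 genes in all. Poly-A RNA was sequenced from mouse bone marrow macrophages, cells grown from marrow precursors. The wild type (WT) was compared with Rbpj f/f;LysMCre cells, the knockout, in which floxed Rbpj is cut by a Cre recombinase expressed from the LysM locus of myeloid cells. Its product, RBP-J, binds DNA and carries Notch receptor signals to target genes. The 4 groups were wild type and knockout without TNF at day 0, and wild type and knockout after 2 days with TNF at 40 ng/ml, a cytokine that also drives macrophages towards osteoclasts, with 2 libraries in each group. No group spent 2 days without TNF, so TNF and time in culture cannot be told apart, and "with TNF" below includes that time. The labels used here give neither the age and sex of the mice nor whether the wild type carried LysMCre.

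Cells pass from G1 into S phase when D-type cyclins with Cdk4 or Cdk6, then E-type cyclins with Cdk2, relieve the RB proteins' block on E2F transcription factors. E2F then raises the genes that load and fire replication origins and that make nucleotides. A later wave, driven by B-MYB and FOXM1 with the MuvB complex, raises the mitotic genes. Macrophages divide in response to M-CSF and leave the cycle as they mature or fuse into osteoclasts, so these messages are commonly read as a sign of how many cells are cycling. In bulk RNA, fewer cycling cells and less message per cell cannot be told apart.

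The libraries held 9855859 to 35653203 reads, the fewest in knockout with TNF, replicate 1, and every member had at least 38 reads in every library. Rbpj was at 215 and 216 CPM in day 0 wild type and at 226 and 178 with TNF, against 38.9 and 31.8 in the knockout at day 0 and 30.0 and 21.4 with TNF, so the libraries matched their genotype labels. All 10 macrophage markers were present, at a summed 5708 to 9745 CPM. Values below are given for replicate 1 and then replicate 2. Tests were limma on log2(CPM + 0.5) with Benjamini-Hochberg adjustment over the 12194 genes, with group alone or with the replicate number added as a block, because differences between replicates 1 and 2 were correlated between groups across all genes tested. The size of that difference in the members varied by group and is given below. A gene is said to have risen or fallen where adjusted p was under 0.05 in one of these fits, which is named. Errors are standard errors, taken from the fit with the block where its adjusted p is given alone, and otherwise from the fit with group alone. Nothing in the labels ties libraries to separate mice, so p-values measure only the spread between these libraries.

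Together the members took 0.844% and 0.786% of reads in wild type at day 0 and 0.546% and 0.199% with TNF. In the knockout they took 0.853% and 0.411% at day 0 and 0.476% and 0.130% with TNF. Within each replicate the TNF library was thus below the day 0 library in both genotypes. The median member was lower in replicate 2 than in replicate 1 in every group, by amounts that differed: 1.17-fold for wild type at day 0, 2.31-fold for the knockout at day 0, 2.60-fold for wild type with TNF and 4.07-fold for the knockout with TNF. Over all genes tested that gap was 1.04-fold to 1.21-fold. Per kilobase of exon at day 0 in wild type, Ccnd1 (cyclin D1) had the highest level, 190 CPM per kb, followed by Pcna, the sliding clamp of DNA polymerases, at 159 CPM per kb. Ccnd2 (cyclin D2) was lowest at 1.69 CPM per kb.

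**Figure D1:**
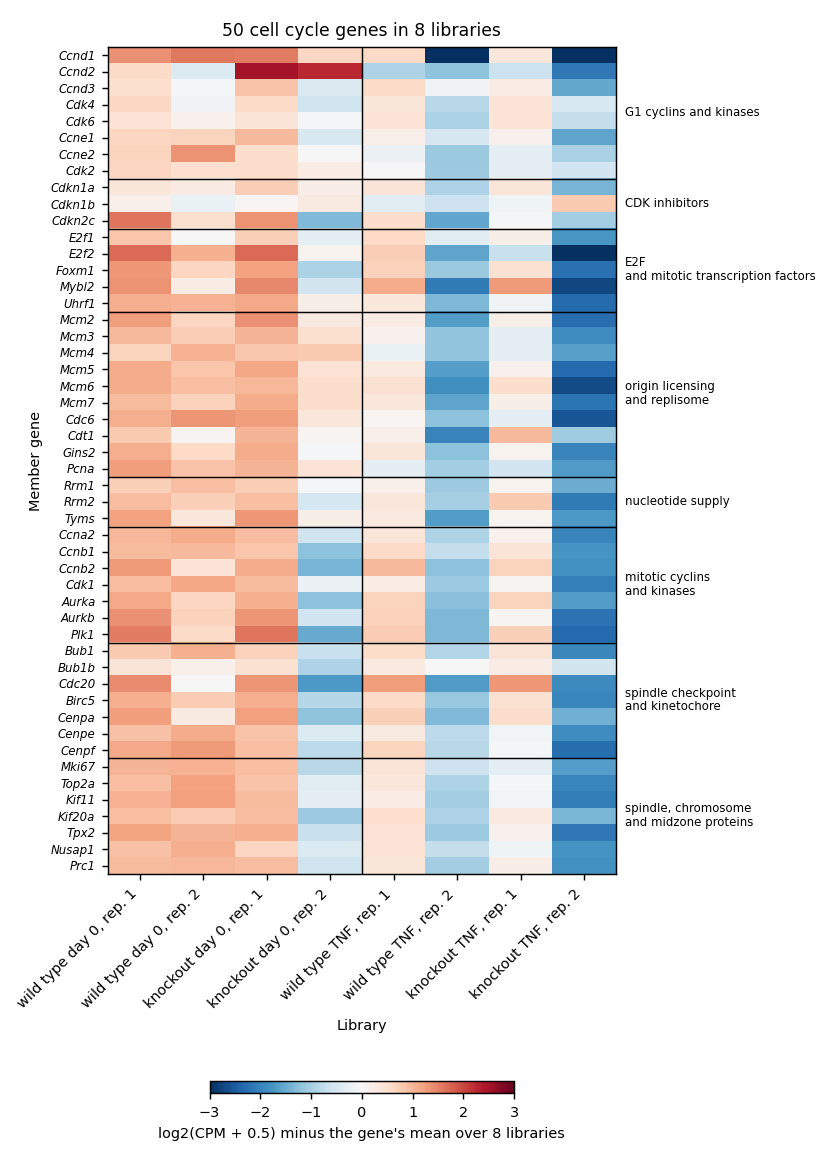
Level of each of the 50 genes (rows, by role) in each of the 8 libraries (columns), as log2(CPM + 0.5) minus the gene's mean over the libraries (colour, saturated beyond 3 on either side). The TNF libraries of replicate 2 are the lowest, and Ccnd2 is highest in both knockout day 0 libraries.

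Promoter sequences of 40 of the 50 members were in the RefSeq promoter table (GRCm38.p6, 250 bases before to 50 after each start), and 3 motifs were searched on both strands. The E2F motif (TTTGGCGC, TTTGCCGC, TTTCGCGC or TTTCCCGC) is bound by E2F factors, the CHR (TTTGAA) by the MuvB complex, and the CCAAT box (CCAAT) by NF-Y. An E2F motif was present in 6 of 11 members for replication and nucleotide supply (Mcm3, Mcm5, Mcm6, Mcm7, Cdc6 and Cdt1) and in 1 of 17 mitotic members (Cdk1), against 2.26% of all 32851 promoters and 2.60% of the 27025 genes with a promoter in the table. The CHR was present in 1 of 11 replication members (Mcm2) and 12 of 17 mitotic members (Ccnb2, Cdk1, Aurka, Plk1, Bub1b, Cdc20, Cenpa, Cenpf, Mki67, Top2a, Kif11 and Prc1), against 17.9% of promoters and 20.2% of genes. A CCAAT box was in 8 of 11 and 15 of 17, against 37.4% of promoters and 41.1% of genes. A match is a stretch of letters and was not tested as a binding site. Of the other members, Cdk2, E2f2 and Uhrf1 held an E2F motif.

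The 4 promoters below show layouts found among the replication and the mitotic members: Mcm5 and Mcm6 with E2F motifs and no CHR, Cdk1 with both, and Cdc20 with the CHR and no E2F motif. All 4 also hold CCAAT boxes. Each line gives the 180 bases before the start, 5′ to 3′ on the gene's strand, with E2F and CHR motifs in capitals. Mcm5 lies at chr8:75109329-75109508 (plus strand), Mcm6 at chr1:128359706-128359885 (minus), Cdk1 at chr10:69352913-69353092 (minus) and Cdc20 at chr4:118437344-118437523 (minus).
Mcm5: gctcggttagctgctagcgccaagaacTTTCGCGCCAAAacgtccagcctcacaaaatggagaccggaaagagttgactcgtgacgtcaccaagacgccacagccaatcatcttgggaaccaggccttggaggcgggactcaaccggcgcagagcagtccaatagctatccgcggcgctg
Mcm6: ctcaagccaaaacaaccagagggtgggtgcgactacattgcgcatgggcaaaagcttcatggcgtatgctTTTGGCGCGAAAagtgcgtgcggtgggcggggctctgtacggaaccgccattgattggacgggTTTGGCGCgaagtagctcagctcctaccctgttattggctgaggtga
Cdk1: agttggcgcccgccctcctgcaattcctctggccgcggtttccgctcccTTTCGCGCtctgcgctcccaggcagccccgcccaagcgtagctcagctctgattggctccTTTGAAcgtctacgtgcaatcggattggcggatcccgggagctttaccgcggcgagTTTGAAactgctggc
Cdc20: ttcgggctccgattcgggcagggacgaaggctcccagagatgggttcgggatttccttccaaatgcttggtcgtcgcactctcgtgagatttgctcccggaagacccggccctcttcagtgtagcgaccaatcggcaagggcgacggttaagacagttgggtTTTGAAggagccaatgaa
Counting the base before the start as -1, the long capital runs of Mcm5 (-153 to -142) and Mcm6 (-110 to -99) are each 2 E2F motifs on opposite strands that overlap, and Mcm6 has another at -47. In Cdk1 the E2F motif begins at -131 and the CHR motifs at -71 and -15, each with a CCAAT box on the opposite strand upstream of it (-80 and -48). Cdc20 has its CHR at -18.

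The first comparison asked what 2 days with TNF did to these genes in each genotype. In wild type the log2 difference was below 0 for 49 of 50 members, against 61.1% of all genes, with a median of -1.28 against -0.12 over all genes tested. In 34 of 50 the TNF libraries lay wholly below the day 0 libraries, against 22.6% of all genes, and 48 of 50 were lower within both replicates, against 43.6%. In the knockout 48 of 50 were below 0, against 57.0% of all genes, with a median of -1.03 against -0.10. There 14 of 50 were lower without overlap, against 25.2% of all genes, a share close to that of all genes. Within both replicates 45 of 50 were lower, against 45.4%. In both genotypes the difference was smaller in replicate 1 (median log2 -0.61 in wild type and -0.80 in the knockout) than in replicate 2 (-1.92 and -1.43).

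By limma with group alone, 0 members passed in wild type, against 0.369% of all genes lower. With the replicate block 5 fell (Pcna, Tyms, Cdk2, Ccne2 and E2f2), against 4.71% of all genes. Without and with the block edgeR called 0 and 4 lower (all genes, 15 of 12194 without and 3.76% with the block). DESeq2 called 2 and 32 (all genes, 2.26% and 9.51%). In the knockout 1 member fell with group alone (Ccnd2), against 2.01% of all genes. With the block 14 fell (Ccnd2, E2f1, E2f2, Uhrf1, Mcm2, Mcm3, Mcm4, Mcm5, Mcm7, Cdc6, Gins2, Pcna, Tyms and Aurkb), against 13.7% of all genes, and no member rose in either genotype (all genes, 0.812% without and 5.54% with the block in wild type, 3.09% and 12.2% in the knockout). edgeR called 1 without and 11 with the block (all genes, 184 of 12194 without and 12.1% with the block). DESeq2 called 5 and 21 (5.72% and 16.4%). Without knockout day 0, replicate 2, only Ccnd2 and Pcna stayed below 0.05 with the block, and the other 12 moved to adjusted p from 0.0552 (E2f2) to 0.254 (Mcm7). The wild type call of Pcna was lost only without wild type with TNF, replicate 2 (adjusted p 0.0571), while the other 4 were each lost without any one (among others) of wild type day 0, replicate 2, wild type with TNF, replicate 2, and either knockout day 0 library, with highest adjusted p from 0.218 (Tyms) to 0.296 (E2f2).

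**Figure D2:**
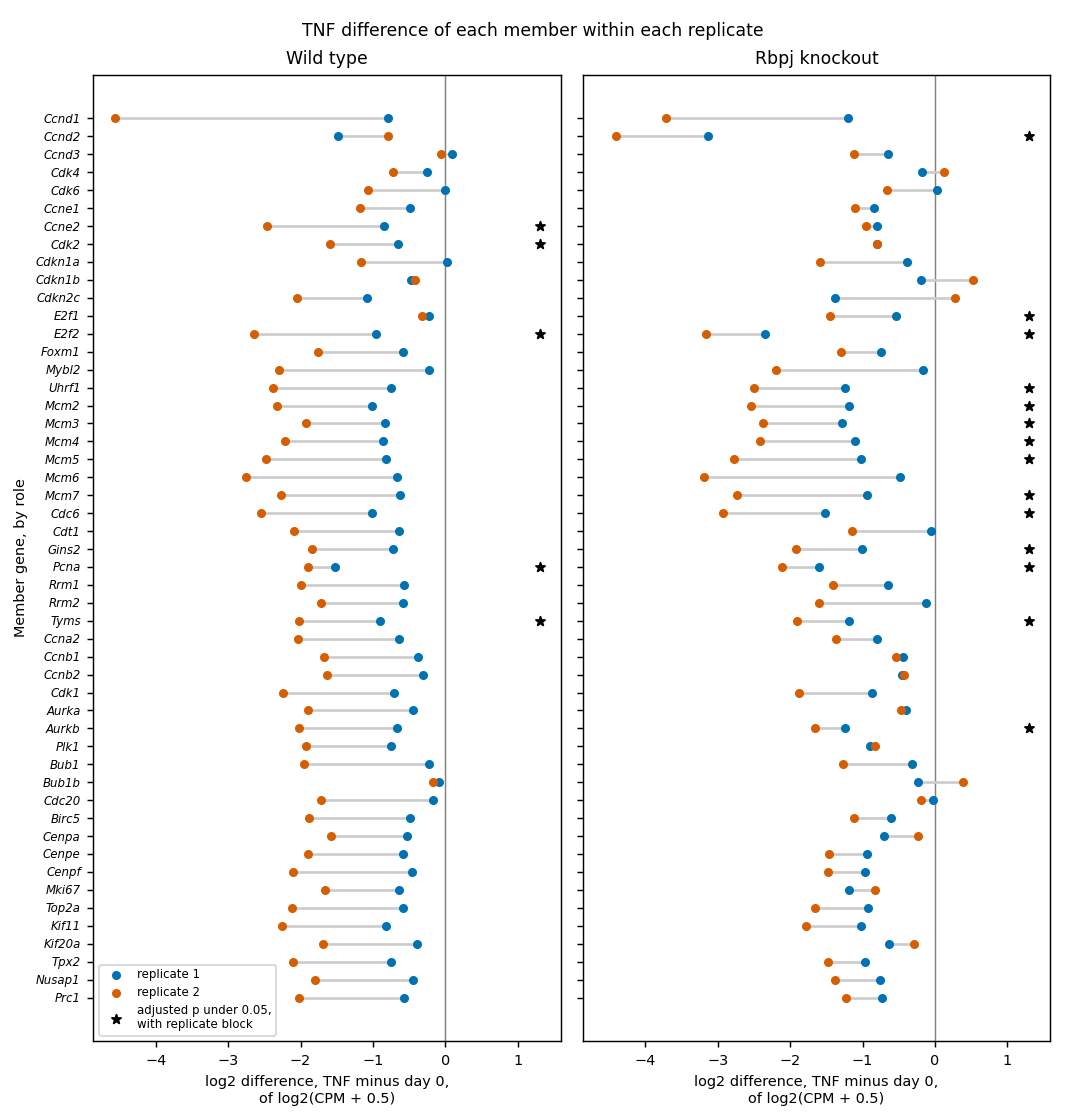
Log2 difference of each member between the TNF and the day 0 library of the same replicate (x axis), in wild type (left) and knockout (right), with the replicates in 2 colours and stars for adjusted p under 0.05 by limma with the replicate block. Most points lie left of 0, and the replicate 2 points lie further left than replicate 1 for 48 members in wild type and 40 in the knockout.

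Among the 8 G1 cyclins and kinases, Ccnd2 in the knockout had the largest difference of any member. It was at 82.2 and 69.3 CPM in the knockout at day 0 and at 8.93 and 2.79 with TNF. In wild type it was at 21.2 and 10.5 CPM at day 0 and at 7.26 and 5.85 with TNF. Ccnd2, at chr6:127125162-127152193 (minus strand, GENCODE M21), encodes cyclin D2, which activates Cdk4 and Cdk6 in G1. The groups did not overlap in either genotype, and the knockout fell 13.6-fold (log2 -3.77 ± 0.57, SE; adjusted p 0.0204, and 0.00143 with the block), against 2.20-fold lower in wild type (adjusted p 0.0839 with the block). Leaving out either knockout day 0 library, or knockout with TNF, replicate 2, ended the call with group alone (highest adjusted p 0.116); with the block it held in 8 of 8 such fits.

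The other D-type cyclins did not pass in either genotype. Ccnd1 was at 827 and 958 CPM in day 0 wild type and at 479 and 39.9 with TNF. In the knockout it was at 934 and 486 CPM at day 0 and at 406 and 36.7 with TNF. Both genotypes were lower with TNF without overlap, but the replicates differed so far in size (log2 -0.79 and -4.57 in wild type) that neither difference passed (adjusted p 0.114 and 0.0948 with the block). Ccnd3 (cyclin D3) ran from 51.7 to 82.7 CPM over the 4 wild type libraries, with a log2 difference of 0.01 ± 0.31 (adjusted p 0.989 with the block). In the knockout Ccnd3 was at 102 and 41.3 CPM at day 0 and at 64.8 and 18.8 with TNF, lower within both replicates but with overlap (log2 -0.88 ± 0.31; adjusted p 0.0803 with the block).

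Past the restriction point, Ccne2 encodes cyclin E2, which with the kinase Cdk2 starts S phase. Ccne2 was at 72.02 and 116 CPM in day 0 wild type and at 39.9 and 20.5 with TNF, and at 65.2 and 44.4 in the knockout at day 0 and 37.1 and 22.7 with TNF. Its groups did not overlap in either genotype, and it fell in wild type (log2 -1.66 ± 0.38, SE with the block; adjusted p 0.0421 with the block), with -0.88 ± 0.38 in the knockout (adjusted p 0.132). Cdk2 was at 79.8 and 71.8 CPM in day 0 wild type and at 50.5 and 23.5 with TNF, and at 73.1 and 59.4 in the knockout at day 0 and 41.8 and 34.0 with TNF. Its groups did not overlap either: Cdk2 fell in wild type (log2 -1.12 ± 0.25; adjusted p 0.0385 with the block), and the knockout difference was -0.80 ± 0.25 (adjusted p 0.0569). The D-cyclin kinases Cdk4 and Cdk6 and the E cyclin Ccne1 had log2 differences between -0.97 and -0.02 over both genotypes, none past the test.

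The CDK inhibitors block these kinases, Cdkn1a (p21) and Cdkn1b (p27) on Cdk2 and Cdkn2c (p18) on Cdk4 and Cdk6. None of the 3 passed in either genotype, without or with the block, and none had higher TNF than day 0 libraries throughout. Cdkn1a was at 304 and 279 CPM in day 0 wild type, 310 and 124 with TNF, 394 and 272 in the knockout at day 0, and 301 and 90.0 with TNF. Replicate 1 of wild type was level, and replicate 2 was lower with TNF in both genotypes. Cdkn2c was at 116 and 53.0 CPM in day 0 wild type, 54.8 and 12.5 with TNF, 96.4 and 14.7 in the knockout at day 0, and 36.6 and 18.0 with TNF. It was lower with TNF in 3 of 4 pairs of libraries, and its wild type log2 difference was -1.56 ± 0.41 (adjusted p 0.0617 with the block). Cdkn1b was at 36.4 and 28.3 CPM in day 0 wild type, 26.1 and 21.1 with TNF, 33.8 and 39.2 in the knockout at day 0, and 29.5 and 56.8 with TNF. Its wild type libraries were lower with TNF without overlap, while in the knockout the pairs went opposite ways (log2 -0.19 and 0.53).

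**Figure D3:**
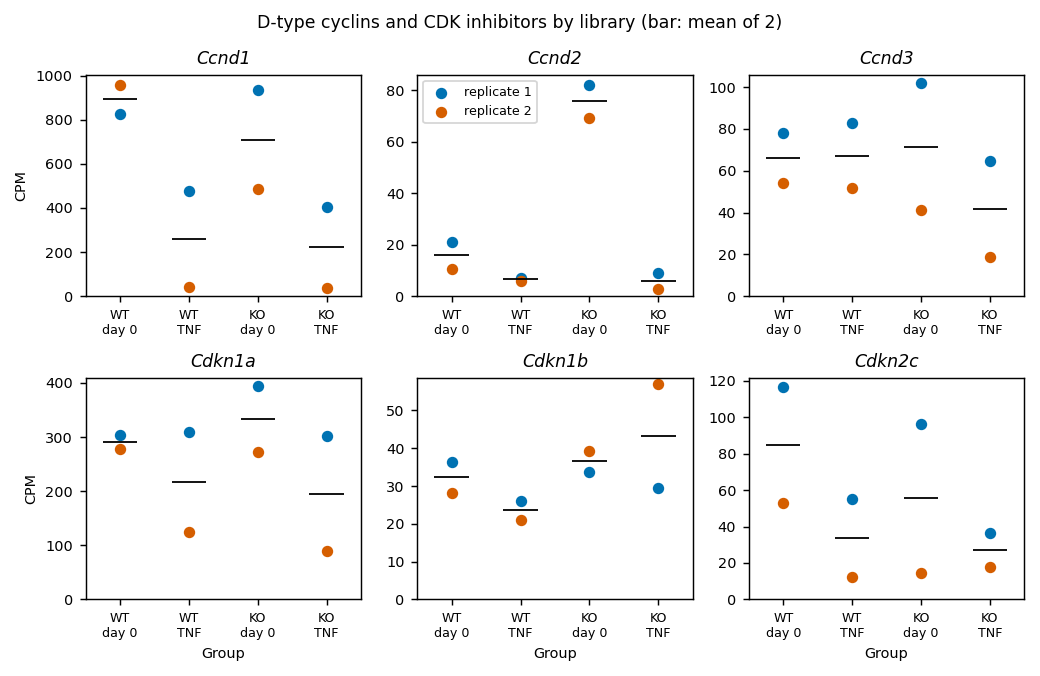
CPM (y axis, from 0) of the D-type cyclins (top) and CDK inhibitors (bottom) in the 4 groups (x axis), with 1 point per library coloured by replicate and a bar at the mean of 2. Ccnd2 stands out in the knockout at day 0, at 82.2 and 69.3 CPM against 21.2 and 10.5 in wild type.

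Of the 5 members listed as transcriptional regulators, E2f2, an activating E2F, differed most. E2f2 was at 96.4 and 62.5 CPM in day 0 wild type and at 49.6 and 9.58 with TNF. In the knockout it was at 96.3 and 31.8 CPM at day 0 and at 18.5 and 3.11 with TNF. The groups did not overlap, and with the block E2f2 fell in wild type (log2 -1.80 ± 0.42; adjusted p 0.0473) and in the knockout (-2.76 ± 0.42; adjusted p 0.00650). E2f1, its close relative, was at 103 and 58.2 CPM in day 0 wild type, 87.7 and 46.3 with TNF, 95.2 and 47.3 in the knockout at day 0, and 65.3 and 17.0 with TNF. Its groups overlapped, and with the block it fell in the knockout (-0.99 ± 0.28; adjusted p 0.0438) but not in wild type (-0.28 ± 0.28; adjusted p 0.568), a contrast whose own test is given below.

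Uhrf1, which carries DNA methylation onto newly copied strands, was at 166 and 162 CPM in day 0 wild type and at 98.1 and 30.6 with TNF. In the knockout it was at 172 and 88.3 CPM at day 0 and at 72.5 and 15.2 with TNF. It did not overlap in either genotype and fell in the knockout with the block (log2 -1.87 ± 0.47; adjusted p 0.0320). Foxm1 and Mybl2 (B-MYB), the drivers of the mitotic wave, had log2 differences from -1.27 to -1.03 over both genotypes and did not pass. Mybl2 was at 35.8 and 3.43 CPM in wild type with TNF and at 40.0 and 2.00 in the knockout, with log2 differences of -0.23 and -0.16 in replicate 1 and -2.30 and -2.20 in replicate 2.

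With the block, 9 of the 14 members called in the knockout and 2 of the 5 in wild type were replication or nucleotide supply genes, roles held by 13 of all 50 members. Of the 10 origin licensing and replisome genes, 9 in wild type and 7 in the knockout were lower with TNF without overlap. Over all genes those shares were 22.6% and 25.2%. The median log2 difference of the 10 was -1.60 and -1.84, against -0.12 and -0.10 over all genes. Pcna, at chr2:132249162-132253314 (minus strand), was at 434 and 329 CPM in day 0 wild type and at 151 and 88.3 with TNF. In the knockout Pcna was at 367 and 241 CPM at day 0 and at 121 and 55.3 with TNF. Its replicates lay close together, with log2 differences of -1.52 and -1.89 in wild type and -1.60 and -2.12 in the knockout. It fell in both genotypes with the block (-1.71 ± 0.20, adjusted p 0.00571, and -1.86 ± 0.20, adjusted p 0.00210), and the knockout call held in 8 of 8 fits that left out 1 library.

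Mcm2 to Mcm7 encode the ring-shaped helicase loaded on origins in G1. Mcm6 was at 409 and 351 CPM in day 0 wild type, 257 and 51.9 with TNF, 377 and 269 in the knockout at day 0, and 270.1 and 29.1 with TNF. Mcm3 was at 238 and 204 CPM in day 0 wild type, 133 and 53.6 with TNF, 248 and 171 in the knockout at day 0, and 101 and 32.4 with TNF. With TNF every Mcm3 library was below every day 0 library of its genotype, and so was every wild type Mcm6 library, while in the knockout Mcm6 overlapped by under 1 CPM. The 5 Mcm genes other than Mcm6 fell in the knockout with the block (log2 -1.90 to -1.76, adjusted p 0.0119 to 0.0420). In wild type the 6 had log2 differences of -1.71 to -1.38, with adjusted p from 0.0531 to 0.169, and did not pass.

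Values of the other helicase genes lay in the same pattern. Mcm2 was at 205 and 135 CPM in day 0 wild type, 101 and 26.5 with TNF, 220 and 103 in the knockout at day 0, and 96.2 and 17.2 with TNF. Mcm4 was at 176 and 230 CPM in day 0 wild type, 96.9 and 48.9 with TNF, 195 and 194 in the knockout at day 0, and 90.4 and 35.9 with TNF. Mcm4 was the member of the ring whose knockout day 0 replicates agreed best. Mcm5 was at 287 and 235 CPM in day 0 wild type, 161 and 41.9 with TNF, 294 and 179 in the knockout at day 0, and 144 and 25.7 with TNF. Mcm7 was at 145 and 120 CPM in day 0 wild type, 93.9 and 24.6 with TNF, 161 and 108 in the knockout at day 0, and 84.3 and 15.8 with TNF. All of them were lower with TNF without overlap in both genotypes, and in each the replicate 2 library with TNF was the lowest.

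Cdc6 and Cdt1 load the helicase, and Gins2 is part of the complex that activates it. Cdc6 was at 46.5 and 54.9 CPM in day 0 wild type, 22.7 and 8.95 with TNF, 52.0 and 27.6 in the knockout at day 0, and 17.9 and 3.22 with TNF. The groups did not overlap, and Cdc6 fell in the knockout with the block (log2 -2.22 ± 0.53; adjusted p 0.0269). Gins2 was at 46.1 and 32.3 CPM in day 0 wild type, 27.6 and 8.69 with TNF, 46.6 and 20.3 in the knockout at day 0, and 22.9 and 5.01 with TNF. The knockout groups overlapped, yet Gins2 fell there with the block (-1.46 ± 0.36; adjusted p 0.0296). Cdt1 was the exception in the list: in the knockout it was at 152 and 79.2 CPM at day 0 and at 146 and 35.4 with TNF, a log2 difference of -0.60 ± 0.38 (adjusted p 0.285 with the block), against -1.37 ± 0.38 in wild type (adjusted p 0.0725).

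Nucleotide supply was represented by both ribonucleotide reductase subunits and thymidylate synthase, which makes dTMP. Tyms was at 68.7 and 37.6 CPM in day 0 wild type, 36.5 and 8.86 with TNF, 73.3 and 33.8 in the knockout at day 0, and 31.9 and 8.65 with TNF. Its groups did not overlap, and with the block it fell in wild type (log2 -1.46 ± 0.30; adjusted p 0.0325) and in the knockout (-1.55 ± 0.30; adjusted p 0.0138). Rrm1 was at 304 and 346 CPM in day 0 wild type, 205 and 86.3 with TNF, 308 and 175 in the knockout at day 0, and 197 and 65.7 with TNF. The wild type groups of Rrm1 and Rrm2 did not overlap and those of the knockout did, and neither gene passed (adjusted p 0.0880 to 0.286 with the block).

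The 21 mitotic members were all below 0 in wild type and 20 of 21 were below 0 in the knockout, against 61.1% and 57.0% of all genes. Their median log2 differences were -1.19 and -0.98. In wild type 14 of 21 were lower without overlap, against 22.6% of all genes. In the knockout 0 of 21 were, against 25.2% of all genes. There the replicate 2 library at day 0 lay below the replicate 1 library with TNF in each. Only Aurkb, the kinase of the chromosomal passenger complex, fell (knockout, with the block: log2 -1.45 ± 0.37, adjusted p 0.0338). Aurkb was at 86.5 and 53.6 CPM in day 0 wild type, 54.0 and 12.8 with TNF, 83.2 and 22.2 in the knockout at day 0, and 34.9 and 6.70 with TNF. Its groups overlapped in both genotypes.

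Ccna2 (cyclin A2) and Cdk1, the kinase that triggers mitosis, represented the mitotic cyclins and kinases. Ccna2 was at 226 and 245 CPM in day 0 wild type, 145 and 59.0 with TNF, 215 and 74.1 in the knockout at day 0, and 123 and 28.3 with TNF. Cdk1 was at 132 and 155 CPM in day 0 wild type, 80.8 and 32.5 with TNF, 135 and 61.5 in the knockout at day 0, and 73.5 and 16.3 with TNF. In wild type the groups of both were apart, and in the knockout replicate 2 at day 0 fell below replicate 1 with TNF. The list's 7 genes, which also include Ccnb1, Ccnb2, Aurka and Plk1, had log2 differences of -1.47 to -0.97 in wild type and -1.45 to -0.43 in the knockout.

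Among the 7 spindle checkpoint and kinetochore genes, Bub1b (BubR1, a checkpoint kinase) lay closest to 0. Bub1b was at 133 and 114 CPM in day 0 wild type, 126 and 101 with TNF, 142 and 53.4 in the knockout at day 0, and 120 and 69.9 with TNF, with log2 differences of -0.13 ± 0.49 and 0.07 ± 0.49. Cenpf, a kinetochore protein of G2 and mitosis, was at 101 and 112 CPM in day 0 wild type, 72.8 and 25.7 with TNF, 85.6 and 26.3 in the knockout at day 0, and 43.7 and 9.12 with TNF. Cenpf groups were apart in wild type and overlapped in the knockout, and it did not pass (adjusted p 0.156 and 0.125 with the block). The others (Bub1, Cdc20, Birc5, Cenpa and Cenpe) had log2 differences of -1.25 to -0.94 in wild type and -1.20 to -0.11 in the knockout.

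Mki67, the source of the Ki-67 proliferation antigen, was at 765 and 770.3 CPM in day 0 wild type and at 490 and 244 with TNF. In the knockout it was at 704 and 210.4 CPM at day 0 and at 310.1 and 118 with TNF. The wild type groups were apart, by log2 -1.15 ± 0.39 (adjusted p 0.112 with the block), and those of the knockout overlapped (adjusted p 0.106 with the block). Kif11, the motor that separates spindle poles, was at 147 and 167 CPM in day 0 wild type, 83.2 and 34.7 with TNF, 138 and 58.2 in the knockout at day 0, and 67.2 and 16.6 with TNF. All 7 genes of this list, with Top2a, Kif20a, Tpx2, Nusap1 and Prc1, were lower without overlap in wild type and overlapped in the knockout. Their medians were -1.29 and -1.07. Over all genes 22.6% and 25.2% were lower without overlap, with medians of -0.12 and -0.10.

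**Figure D4:**
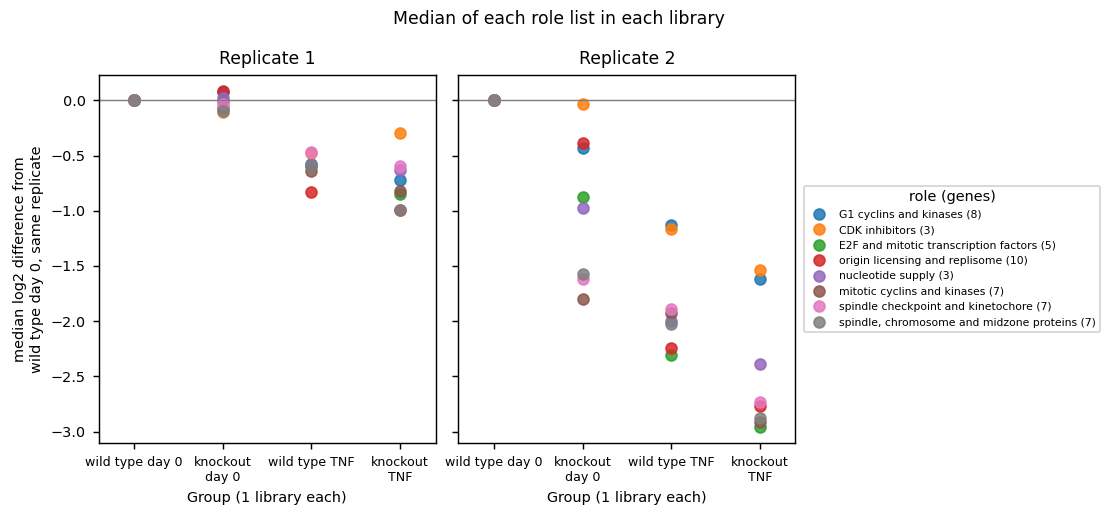
Median log2 difference of each role list from the wild type day 0 library of the same replicate (y axis), for the 4 groups (x axis) in replicate 1 (left) and replicate 2 (right). In replicate 1 the knockout day 0 medians lie near 0. In replicate 2 the 3 mitotic lists lie at -1.57 to -1.80 and the origin list at -0.39. Nucleotide supply at -0.98 and the E2F and mitotic transcription factors at -0.87 lie between.

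The next comparison asked what the loss of Rbpj did before TNF. At day 0 the log2 difference of the knockout from wild type was below 0 for 46 of 50 members, against 49.1% of all genes. The median member was at -0.49, against 0.01 over all genes tested. That median came from 1 replicate: it was -0.01 in replicate 1, with 0 of 50 members at least 2-fold lower (all genes, 0.861%), and -1.12 in replicate 2, with 26 of 50 (all genes, 4.24%). Without 1 library at a time the median with group alone ran from -1.21 to 0.14, and it was above 0 only without knockout day 0, replicate 2. By limma 0 members passed without or with the block. Of all genes, 0.0% passed in either direction with group alone, and 0.0082% lower and 0.0% higher with the block. edgeR called 0 in both fits (all genes with the block, 0.0082% lower and 0.0% higher), and DESeq2 called Ccnd2 higher in both, against 0.156% of all genes without and 1.14% with the block. Without overlap, 11 members were lower, against 8.66% of all genes, and 1 was higher, against 9.86%.

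In replicate 2 the mitotic members, more than the replication members, were low in the knockout at day 0. All 21 mitotic genes were at least 2-fold lower there, with a median log2 of -1.69, against 1 of the 13 replication and nucleotide genes, with -0.39. In replicate 1 those medians were -0.07 and 0.06. Other role lists lay between in replicate 2. The nucleotide supply list alone had a median of -0.98 and the E2F and mitotic transcription factors -0.87, against -0.39 for the origin list. As examples chosen after their values were seen, Plk1, a kinase of mitotic entry, was at 96.2 and 49.8 CPM in wild type and at 102 and 11.4 in the knockout. Cdc20, which activates the anaphase-promoting complex, was at 79.1 and 29.5 CPM against 73.6 and 8.48, while Mcm4 was at 176 and 230 against 195 and 194. The summed CPM of the mitotic members divided by that of the replication members was 1.29 and 1.47 in wild type at day 0, 1.57 and 1.87 with TNF, 1.23 and 0.649 in the knockout at day 0, and 1.25 and 1.45 with TNF. The knockout day 0 library of replicate 2 was thus the 1 library of 8 with a ratio below 1, and with 1 library this has no replicate. The level of the ratio depends on the lists, of 21 and 13 genes, and on their most abundant genes. In wild type at day 0, replicate 1, Mki67 and Top2a gave 765 and 533 of the 3437 mitotic CPM. Where the ratio crosses 1 therefore does not tell which kind of message prevailed.

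**Figure D5:**
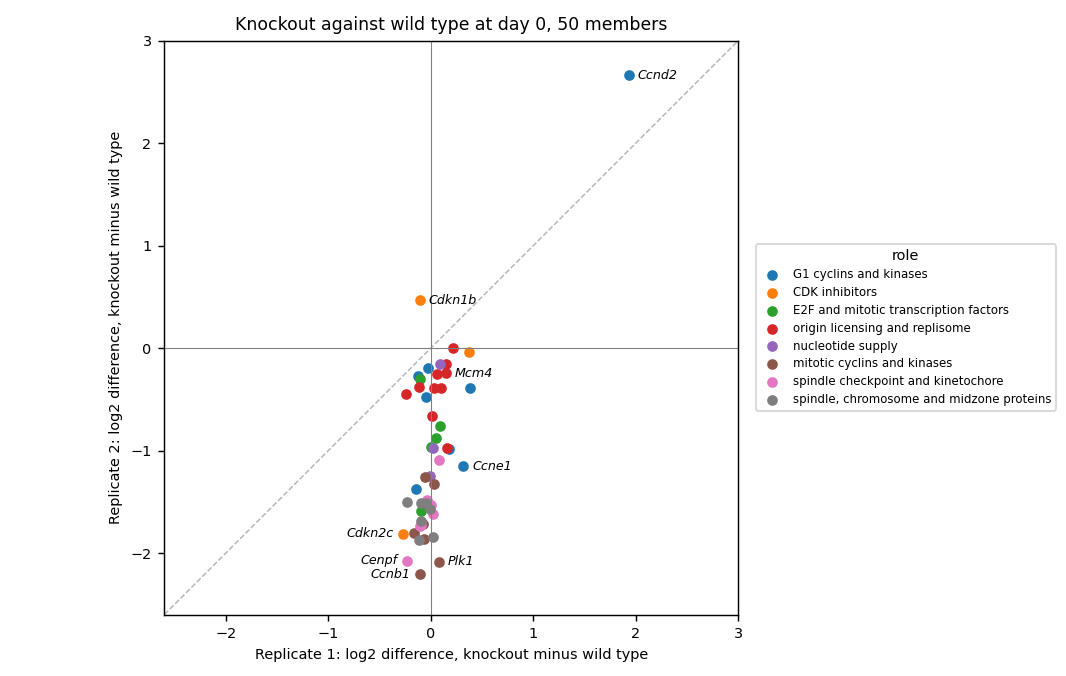
Log2 difference between knockout and wild type at day 0 for each of the 50 members in replicate 1 (x axis) and replicate 2 (y axis), coloured by role, with a dashed line where the replicates would be equal. The members lie in a vertical band near 0 in replicate 1 that reaches -2.21 (Ccnb1) in replicate 2, and Ccnd2 is alone at the upper right.

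Ccnd2 went against this pattern and was the only member higher in the knockout at day 0 without overlap. It was at 82.2 and 69.3 CPM in the knockout against 21.2 and 10.5 in wild type, 3.88-fold higher in replicate 1 and 6.58-fold in replicate 2 as a ratio of CPM. The log2 difference of 2.30 ± 0.34 (SE with the block) did not pass by limma (adjusted p 0.271 with the block) and did by DESeq2 with the block (adjusted p 3.55e-06). Ccnd1 and Ccnd3 stood at -0.40 and 0.00 on the log2 scale.

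After TNF the knockout members were again lower in the median, at log2 -0.46 against 0.02 over all genes, with -0.19 in replicate 1 and -0.76 in replicate 2. By limma 0 passed without or with the block. Of all genes, 0.0% were lower and 0.0082% higher with group alone, and 3.75% and 5.53% with the block. edgeR called 0 members in both fits, against 0 of all 12194 genes without the block and 349 lower and 462 higher with it. DESeq2 called 0 without the block, against 218 lower and 375 higher of all genes. With the block DESeq2 called 2 lower (E2f1 and E2f2), against 8.81% of all genes. With group alone the median was 0.29 without wild type with TNF, replicate 1, and 0.49 without knockout with TNF, replicate 2. Its sign in that fit thus depended on these libraries. With the block the median ran from -1.05 to -0.011 over the fits that left out 1 library. E2f2 was at 18.5 and 3.11 CPM in the knockout against 49.6 and 9.58 in wild type, a log2 difference of -1.44 ± 0.42 and of -1.40 and -1.48 in the replicates (adjusted p 0.0843 by limma and 0.00674 by DESeq2, both with the block). No member was lower without overlap, against 16.1% of all genes. Cdkn1b was higher without overlap, against 18.8%, at 29.5 and 56.8 CPM in the knockout and 26.1 and 21.1 in wild type, and did not pass (log2 0.79 ± 0.32; adjusted p 0.177 with the block). Cdt1, the licensing factor, was higher within both replicates, at 146 and 35.4 against 83.6 and 18.1 CPM (log2 0.88 ± 0.38; adjusted p 0.200 with the block).

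Whether TNF acted differently in the genotypes was tested as the difference of the TNF responses, knockout minus wild type. By limma and edgeR 0 members passed without or with the block, against 0.0% of all genes. DESeq2 called 0 without the block, against 28 lower and 51 higher of all 12194 genes. With the block DESeq2 called Ccnd2 lower (adjusted p 0.000256), against 4.0% of all genes lower. The Ccnd2 responses differed by log2 -2.63 ± 0.48 (adjusted p 0.106 by limma with the block), with -1.65 in replicate 1 and -3.61 in replicate 2. For E2f1 the difference was -0.72 ± 0.40 (adjusted p 0.408) and for Pcna -0.15 ± 0.28 (adjusted p 0.849). The comparisons between genotypes and those with TNF use the same 8 libraries and are not independent of each other.

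Further genes of the same pathways were counted by function, with the block, against the 4.71% and 13.7% of all genes that fell. Of 43 other replication genes, 7 fell in wild type and 24 in the knockout; of 13 nucleotide supply genes, 0 and 1; of 59 genes of mitosis and cytokinesis, 1 and 13; of 25 E2F, RB and DREAM regulators, 9 and 11. No gene of these 4 lists rose in these fits, against 5.54% and 12.2% of all genes. With group alone 2 genes of the 4 lists (43, 13, 59 and 25 genes) fell in the knockout, a share below the 2.01% of all genes. They were the condensin subunit Ncapg2 (log2 -2.55, adjusted p 0.0475) and Rbl1, the RB family protein p107 (-1.85, adjusted p 0.0461). Medians in wild type and the knockout were -1.14 and -1.17 for replication, -0.44 and -0.57 for nucleotide supply, -1.30 and -1.09 for mitosis, and -0.77 and -0.85 for the regulators, against -0.12 and -0.10 over all genes.

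By size of the fall in the knockout, the leading replication genes were Timeless, of the fork protection complex (log2 -2.31, adjusted p 0.0292 with the block), Lig1, which seals Okazaki fragments (-2.07, 0.0229), and Mcm10, an origin firing factor (-1.99, 0.0490). Dck, which salvages deoxynucleosides, fell by 1.78 on the log2 scale in the knockout (adjusted p 0.0324 with the block). It was at 154 and 374 CPM there at day 0 and at 70.5 and 68.8 with TNF, and in wild type at 165 and 406 and then 107 and 472, with overlap. Condensin subunit Ncaph and the kinetochore protein Ndc80 fell in the knockout too (log2 -1.83 and -1.78; adjusted p 0.0290 and 0.0203 with the block). E2f7, a repressive E2F, was at 36.7 and 29.8 CPM in day 0 wild type, 17.1 and 4.37 with TNF, 34.5 and 13.5 in the knockout at day 0, and 8.12 and 1.48 with TNF. With the block E2f7 fell in both genotypes (adjusted p 0.0444 and 0.0102), as did Myb (0.0213 and 0.00577), a factor of progenitor cells that was low, at 0.365 to 8.17 CPM. Without knockout day 0, replicate 2, the knockout calls of Timeless, Lig1, Mcm10, Dck, Ncapg2, Ncaph, Ndc80, E2f7, Myb and Rbl1 were lost, with highest adjusted p from 0.0640 (Myb) to 0.252 (Mcm10) over the fits that left out 1 library; the wild type calls of E2f7 and Myb were each lost in 5 of 8 such fits (highest adjusted p 0.281 and 0.108).

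Of the 24 other inhibitors and arrest genes, 2 fell and 1 rose in wild type with the block. In the knockout 6 fell and 1 rose with the block. Of all genes, 4.71% fell and 5.54% rose in wild type, and 13.7% fell and 12.2% rose in the knockout. The 1 of 24 that rose in each genotype is a share below that of all genes. Cdkn2b (p15), an inhibitor of Cdk4 and Cdk6, was at 3.43 and 2.67 CPM in day 0 wild type, 16.8 and 23.7 with TNF, 5.79 and 0.711 in the knockout at day 0, and 16.9 and 10.3 with TNF. All its TNF libraries were above all its day 0 libraries, and it rose in the knockout (log2 2.32 ± 0.61; adjusted p 0.0369 with the block), with 2.54 ± 0.61 in wild type (adjusted p 0.0508). Btg1, an antiproliferative gene, was at 81.9 and 57.8 CPM in day 0 wild type, 284 and 219 with TNF, 75.5 and 96.3 in the knockout at day 0, and 171 and 87.4 with TNF. It rose in wild type (1.85 ± 0.29; adjusted p 0.0145 with the block) and overlapped in the knockout (0.52 ± 0.29; adjusted p 0.232). Btg2, its relative, was at 14.7 and 16.8 CPM in day 0 wild type, 11.2 and 26.3 with TNF, 16.5 and 33.3 in the knockout at day 0, and 3.75 and 8.54 with TNF. Btg2 fell in the knockout (-1.95 ± 0.28; adjusted p 0.00536) and was lower there than in wild type after TNF (-1.51 ± 0.28; adjusted p 0.0302), both with the block. Each of these calls was lost without at least 1 library: highest adjusted p was 0.164 for Cdkn2b, 0.116 for Btg1, and 0.0544 and 0.226 for Btg2.

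Markers of other cell types moved with these groups, and their part in the members' differences was not tested. Summed CPM of 7 granulocyte precursor markers (7 of 7 kept, none at 0 throughout) was 36.2 and 63.1 in wild type at day 0, 9.20 and 3.14 with TNF, 57.1 and 139 in the knockout at day 0, and 6.60 and 2.27 with TNF. That of 7 haematopoietic progenitor markers (5 of 7 kept, none at 0 throughout) was 8.27 and 19.1, 3.95 and 5.47, 15.8 and 52.1, and 7.41 and 13.9 in the same order. The 8 mature neutrophil markers in the table, all kept, summed to 154 and 845 CPM in day 0 wild type, 115 and 219 with TNF, 238 and 945 in the knockout at day 0, and 57.8 and 64.8 with TNF. All 3 sums were highest in knockout day 0, replicate 2, where the mitotic members were low. The 6 megakaryocyte markers, all kept, summed to 278 and 382 CPM in day 0 wild type, 167 and 97.9 with TNF, 386 and 312 in the knockout at day 0, and 162 and 41.1 with TNF. The granulocyte precursor, progenitor, neutrophil and megakaryocyte sums were, like those of the members, lower with TNF than at day 0 within both replicates of both genotypes. B lymphoid, T and NK cell, and mast cell and basophil markers summed to at most 10.7, 26.5 and 11.1 CPM in any library. The 9 osteoclast markers, all kept, summed to 61.0 and 152 CPM in day 0 wild type, 6300 and 4822 with TNF, 73.4 and 160 in the knockout at day 0, and 17922 and 44548 with TNF. Stromal markers (6 of 7 kept, none at 0 throughout) ran with the replicate, at 118 to 179 CPM in the replicate 1 libraries and 4.04 to 32.5 in those of replicate 2. Erythroid genes summed to 0.264 to 2.07 CPM, with the 6 genes Hba-a1, Hba-a2, Hbb-bs, Hbb-bt, Car1 and Slc4a1 at 0 in every library.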

How the data were processed

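RNA of 8 libraries was measured as CPM per gene, computed by the authors with edgeR from HTSeq counts of fastp-trimmed reads aligned with HISAT2 to mm10, per the submitters' processing notes; the order of steps, versions and settings, and the annotation used, are not stated there. Per the series design, 2 independent experiments were done. The deposited CPM values were whole multiples of 1 read (100% within 0.01), which gave the reads behind each value, and 0 columns were left unmapped.

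A floor of 1 CPM, reached in 2 or more libraries, kept 12194 of 24421 genes (49.9%), and log2(CPM + 0.5) was computed from the deposited values. The pseudocount of 0.5 understates differences of low genes. limma 3.58.1 (R 4.3.3; lmFit, eBayes with trend, 2-sided) fitted the 4 groups with 4 residual degrees of freedom, or 3 with the replicate number as a block, with Benjamini-Hochberg adjustment and a threshold of 0.05. Differences between replicates 2 and 1 correlated between groups across 12194 genes (Pearson r 0.577 to 0.805 in 6 pairs of groups), so the number was treated as pairing the libraries; no label says outright that it marks the experiment. edgeR 4.0.16 (quasi-likelihood) and DESeq2 1.42.0 were run on the recovered reads. Alternatives were other pseudocounts and filters, rescaling, the libraries of a contrast alone, and leaving out each library. The code was tested on simulated data in which the replicate difference of each gene was the same in every group. In the members that difference varied by group, so the simulation did not test the block under such values.

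The members and lists were chosen with earlier results of these data known. Values in every library are given for members called in any comparison and, in each role list, for the member with the highest mean CPM and the one with the largest TNF difference; for pathway lists, up to 3 called genes with the largest differences are named. Values of Ccnd3, Cdkn1b, Cdt1, Mybl2, Plk1 and Cdc20 were added after they were seen. Gene positions and exon lengths are from GENCODE M21 (GRCm38). Counts without strand information cannot separate overlapping genes, and the strand setting is not given in the sources used here.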

Additional observations from a re-analysis of the deposited data

Results flagged for a closer look

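Cdk4, the kinase partner of the D-type cyclins, was picked out because its knockout difference went one way in every replicate at day 0 and the other way in every replicate after TNF. The log2 difference between knockout and wild type was -0.05 and -0.48 at day 0 and 0.03 and 0.38 after TNF, so that the mean differences were 0.47 apart. By limma the difference of the TNF responses of Cdk4 did not pass (adjusted p 0.377 with the replicate block).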

How the results depend on the processing

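Adding the replicate block raised the members called with TNF from 0 to 5 in wild type and from 1 to 14 in the knockout, and changed no other count of the members' calls by limma. It also raised the pathway list calls. Among them, those lower in the knockout than in wild type after TNF went from 0 to 3 for inhibitors and arrest genes. For E2F, RB and DREAM regulators they went from 0 to 1. Over all genes those called lower went from 0.0% to 3.75%. Rescaling the deposited CPM by median ratios or by TMM gave 2 calls each in the knockout, where 248 and 251 of all 12194 genes were called lower. Together with the block, a choice made after seeing the data, it gave 4 and 5 in wild type and 14 and 14 in the knockout. Of all genes, those fits called 466 and 492 lower in wild type, and 1529 and 1586 in the knockout. Fitting only the libraries of the contrast gave 0 in the knockout, and the difference of the responses has no such fit. On recovered reads edgeR with the block called 4 in wild type and 11 in the knockout, DESeq2 called 2 and 5, and DESeq2 with the block 32 and 21. DESeq2 also called 1 at day 0 between genotypes without and with the block, 2 after TNF with it and 1 for the difference of the responses with it. The causes were not tested.

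Leaving out 1 library at a time, the calls ran from 0 to 33 in wild type (0 in each such fit without the block), from 0 to 29 in the knockout, from 0 to 3 between genotypes after TNF and from 0 to 1 for the difference of the responses. With the block, wild type gave 13 without knockout with TNF, replicate 1, and the knockout gave 28 without wild type day 0, replicate 1, and 8 and 9 without wild type with TNF, replicates 1 and 2. Each of these fits left 1 library in a group, and the calls over all genes with TNF differed between the fits too. The members' counts alone therefore do not show how far the members differed from all genes there. The median member difference ran from -2.06 to -0.48 with TNF in wild type and from -2.12 to -0.18 in the knockout. Between genotypes the median member difference ran from -1.32 to 0.14 at day 0 and from -1.62 to 0.49 after TNF. With the block and without knockout with TNF, replicate 1, it was -1.59 in the knockout and -1.05 between genotypes after TNF, and the latter was -0.011 without replicate 2 of that group. Rescaling moved the median of all genes with TNF in wild type from -0.12 to -0.01 or -0.02, and the members' median from -1.28 to -1.17 or -1.18. The 2 libraries a group limit the precision of every value, and each member had at least 38 reads in each library.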
